A study of Mus musculus with 48 samples.

Results

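The genes followed here mark the epithelium of the choroid plexus: Ttr, Folr1, Clic6, Kcnj13, Kl, Slc4a5, Sostdc1, Otx2, Aqp1 and Tmem72. They were chosen by symbol, and each symbol matched 1 of the 54838 genes in the deposited count table, giving 10 members. Poly(A) RNA was sequenced from 2 brain regions, hippocampus and prefrontal cortex, of male mice that were either wild type (WT) or Aag-/- (KO), the latter lacking the alkyladenine DNA glycosylase encoded by Mpg. The ages were 5 days after birth (P5), 6 weeks (6W) and an adult age labelled 6M, given as 4 to 6 months in the series text, with 4 animals at each time point. Each of the 12 groups holds 4 samples, 48 in all. The labels give no strain, describe the deletion as a plain knockout with no promoter or Cre, and do not say which hippocampus and prefrontal samples came from 1 animal. The libraries hold 21615824 to 47343993 counts. Mpg itself lay at 0.944 to 2.52 CPM (counts scaled to library sizes adjusted by TMM, edgeR's scaling) in the 24 KO libraries and at 4.46 to 8.93 CPM in the 24 WT libraries, with no overlap.

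The choroid plexus is a sheet of secretory epithelium on a vascular core that floats in the brain ventricles and makes the cerebrospinal fluid. Its cells pump sodium, bicarbonate, chloride and water towards the ventricle, take up folate, and secrete the thyroid hormone carrier transthyretin. In the lateral ventricle it is attached along the edge of the hippocampus, whereas the prefrontal cortex has no such tissue of its own. A sample of bulk RNA cannot tell fewer choroid plexus cells from less of a transcript in each cell, and that holds for every value given here.

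Otx2 encodes a homeobox transcription factor of the choroid plexus epithelium, and factors of its class bind DNA at TAATCC. Since the members moved together from library to library, that motif was looked for on both strands in the 250 bases before annotated gene starts (RefSeq sequences, GRCm38.p6). Of the 10 members, 6 were found in that collection, with 9 windows. TAATCC occurred in 1 of those 9 windows, that of an Otx2 start, and in 6.25% of all 32851 windows of the same length. The shorter core TAATC, which every TAATCC contains and which was added after the letters had been seen, occurred in 3 of the 9 windows (1 each of Kcnj13, Otx2 and Tmem72) and in 19.8% of all windows. The 4 matches are shown because they are the places in these windows that hold the core searched for. Each stretch reads 5′ to 3′ on the strand of the gene, and capitals mark the motif or its reverse complement. The Otx2 and Tmem72 matches are cut to 30 bases, since exons of longer annotated transcripts cover 250 and 155 of the 250 bases of their windows. The whole window is given for Kcnj13, where no annotated exon overlaps it.
Otx2, chr14:48665303-48665332, minus strand, 211 bases before the start: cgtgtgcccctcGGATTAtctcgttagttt
Tmem72, chr6:116716896-116716925, minus strand, 155 bases before the start: cctgcccaacccTAATCggtatgatctcag
Tmem72, chr6:116716794-116716823, minus strand, 53 bases before the start: tcccaagataatGATTAaactgagcagcac
Kcnj13, chr1:87394730-87394979, minus strand, match 226 bases before the start: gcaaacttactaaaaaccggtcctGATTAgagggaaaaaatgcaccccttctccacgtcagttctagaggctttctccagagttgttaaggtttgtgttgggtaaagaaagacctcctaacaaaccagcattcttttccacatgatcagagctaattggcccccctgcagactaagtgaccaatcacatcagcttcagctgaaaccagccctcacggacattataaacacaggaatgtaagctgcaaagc
A match of this length is a description of letters, and no binding was measured here.

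Ttr, the transthyretin gene (chr18:20665280-20674321, GRCm38, plus strand), had the highest level of the 10 genes in the WT hippocampus at P5. In the WT hippocampus at P5 its level was 7374, 7344, 1932 and 3761 CPM in replicates 1 to 4. In the KO hippocampus at P5 it was 16.1, 1874, 1833 and 7.36 CPM. KO replicates 2 and 3 thus sat just under the lowest WT sample, while KO replicates 1 and 4 lay far below both, and the groups did not overlap. The lowest of these values rests on 200 counts and the highest on 226358 counts.

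At 6W Ttr was 45.0, 16.9, 56.0 and 1068 CPM in WT and 100.4, 4635, 75.2 and 56.3 CPM in KO. At 6M it was 95.2, 300.3, 2653 and 2222 CPM in WT and 161, 1773, 135 and 48.9 CPM in KO. At both ages 1 or 2 libraries of each genotype stood far above the others, and the genotypes overlapped. In the prefrontal cortex Ttr stayed between 1.35 and 21.1 CPM in all 24 libraries, with a median of 3.76 CPM.

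**Figure D1:**
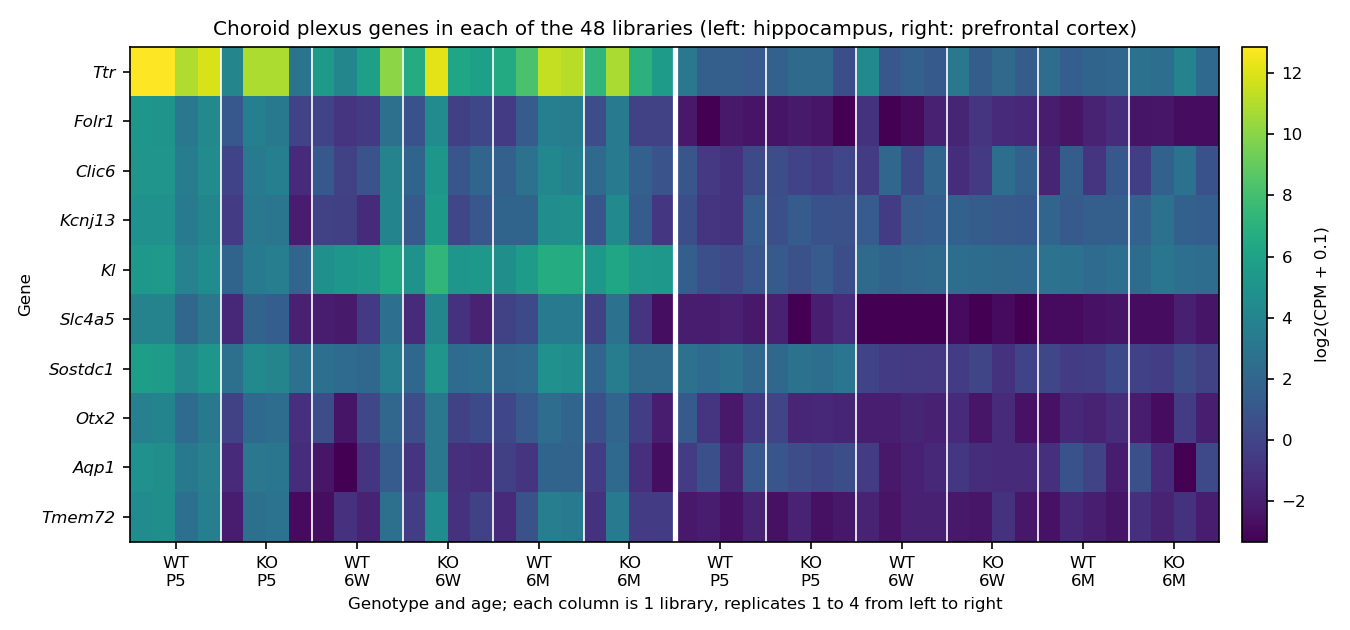
Level of each of the 10 genes (rows) in each of the 48 libraries (columns), as log2(CPM + 0.1), with WT before KO at each age and replicates 1 to 4 from left to right, hippocampus on the left and prefrontal cortex on the right. Whole columns are bright or dark together in the hippocampus, as in KO at 6W, where replicate 2 (Ttr 4635 CPM) stands out from its 3 neighbours in every gene.

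The ion and water transporters of the epithelium followed the same libraries. Kcnj13, the inward-rectifier potassium channel Kir7.1 (chr1:87386363-87394729, minus strand), was 29.0, 29.3, 10.02 and 16.8 CPM in WT at P5 and 0.614, 8.77, 8.15 and 0.147 CPM in KO at P5. Slc4a5, a sodium bicarbonate cotransporter (chr6:83219828-83304945, plus strand), was 14.8, 15.2, 3.97 and 8.44 CPM in WT and 0.253, 3.46, 2.71 and 0.184 CPM in KO. Aqp1, the water channel of the side of the cell that faces the ventricle (chr6:55336432-55348555, plus strand), was 28.4, 25.1, 9.19 and 12.9 CPM in WT and 0.289, 8.57, 8.09 and 0.331 CPM in KO. In all of these genes KO replicates 1 and 4 lay below 1 CPM, and the genotypes did not overlap. Clic6, of the chloride intracellular channel family (chr16:92485736-92541243, plus strand), was 34.6, 34.2, 10.8 and 21.8 CPM in WT and 0.867, 9.95, 12.5 and 0.294 CPM in KO, with KO replicate 3 above WT replicate 3.

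Folr1, the folate receptor (chr7:101858331-101870788, minus strand), was 36.7, 33.3, 8.83 and 19.3 CPM in WT at P5 and 2.06, 12.6, 9.08 and 0.883 CPM in KO. Kl, klotho, a co-receptor for the hormone FGF23 that neurons also make (chr5:150952607-150993817, plus strand), was 39.9, 41.1, 14.2 and 22.8 CPM in WT and 3.61, 10.7, 11.8 and 3.83 CPM in KO. Kl did not overlap between genotypes, and Folr1 did, since WT replicate 3 was below both higher KO libraries.

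Sostdc1, a secreted antagonist of BMP and Wnt signals (chr12:36314139-36318452, plus strand), was 53.2, 46.2, 19.7 and 35.9 CPM in WT and 6.25, 21.3, 16.0 and 6.70 CPM in KO at P5. Otx2 (chr14:48657677-48673819, minus strand) was 13.0, 15.7, 4.86 and 9.28 CPM in WT and 0.831, 4.6, 5.29 and 0.368 CPM in KO. Tmem72, a membrane protein gene (chr6:116679063-116716913, minus strand), was 22.2, 25.9, 5.79 and 11.9 CPM in WT and 0.145, 6.21, 7.08 and 0.0368 CPM in KO, the last being 1 count. For each of these genes the highest KO library passed WT replicate 3, so the groups overlapped.

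Kcnj13 overlaps a neighbour, Gigyf2, whose exonic bases on the opposite strand cover 49.1% of the exonic bases of Kcnj13. Of the 31-base words of Tmem72, 31.5% occur antisense in other genes elsewhere, and 14.9% occur there in the sense direction. Whether the counting used strand is not given in the sources used here. The low prefrontal levels of Kcnj13 and Tmem72 may thus not all belong to these genes. Per kilobase of exon (RPKM), the order in the WT hippocampus at P5 was Ttr at 4302 ± 2285, Sostdc1 at 21.7 ± 8.17, Kcnj13 at 16.8 ± 7.49, Folr1 at 10.7 ± 5.62, Aqp1 at 7.19 ± 3.53, Clic6 at 6.47 ± 2.91, Kl at 3.16 ± 1.41, Otx2 at 2.54 ± 1.12, Slc4a5 at 1.83 ± 0.933 and Tmem72 at 0.959 ± 0.539 (mean ± SD, n = 4). Ttr lay apart from the rest by more than its SD. Below it, neighbours in that order differed by less than the larger of their SDs, with the exception of Clic6 and Kl.

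**Figure D2:**
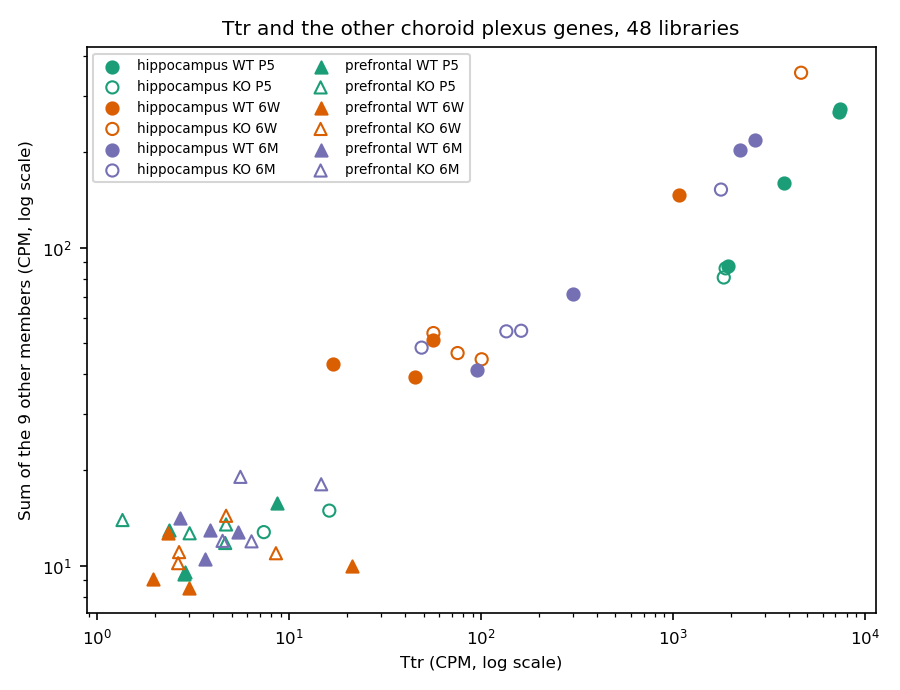
Ttr (x axis, CPM, log scale) against the summed level of the other 9 genes (y axis, CPM, log scale), 1 point per library, 48 in all, by tissue and genotype. Hippocampus libraries span 7.36 to 7374 CPM of Ttr, with a larger sum of the other genes where Ttr is high, and prefrontal libraries form a cloud at or below 21.1 CPM.

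Within a group of 4 hippocampus libraries, the high libraries were largely shared between genes, whereas the whole order was not. In KO at 6W, in KO at 6M and in WT at 6W all 9 other genes had their highest library in the one that was highest for Ttr. In WT at 6M 8 of 9 did, the exception being Kcnj13, and at P5 5 of 9 did in KO and 4 of 9 in WT. The pair of libraries highest in Ttr was also the highest pair for 9 of 9 genes in KO at P5, WT at P5 and WT at 6M, and for 4, 5 and 3 of 9 in KO at 6W, KO at 6M and WT at 6W. The order of all 4 libraries was that of Ttr for 1 to 7 of 9 genes. In the 6 prefrontal groups 2 to 6 of 9 genes shared the highest library of Ttr, and 0 to 3 of 9 its highest pair.

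The spread among libraries of 1 group was wide even beside other genes. The pooled SD within groups of log2 CPM in the hippocampus was 2.74 for Ttr, which ranked 1 of 17786 tested genes. Tmem72 at 2.47, Slc4a5 at 2.23, Kcnj13 at 2.15 and Aqp1 at 2.13 ranked 3, 7, 9 and 10. Folr1 at 1.78, Clic6 at 1.66 and Otx2 at 1.58 ranked 15, 21 and 27, and Sostdc1 at 1.02 and Kl at 0.82 ranked 254 and 889. The median gene had an SD of 0.21. In the prefrontal cortex 7 of the 10 genes passed the filter on low counts, all except Folr1, Slc4a5 and Tmem72, and their SD was 0.34 (Kl) to 1.35 (Aqp1) against a median of 0.24 over 18144 genes.

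With the group means removed, the log2 level of each gene over the 24 hippocampus libraries had a Pearson r with the mean of the 10 genes of 0.903 (Sostdc1) to 0.987 (Ttr). That mean contains the gene itself, and all points share their library and its depth. Over the 24 prefrontal libraries r ran from -0.174 (Sostdc1) to 0.715 (Otx2) for the 7 genes that passed the filter there. The mean of the 10 also held Folr1, Slc4a5 and Tmem72, at 3 or fewer counts in 12, 15 and 10 of those 24 libraries. Across all 17786 hippocampus genes the 5th percentile of r was -0.41 and the 95th was 0.41.

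Hippocampus and prefrontal cortex were compared within each genotype and age to see in which dissections choroid plexus transcripts were more abundant. In WT at P5 all 10 genes were higher in the hippocampus (edgeR quasi-likelihood test, highest adjusted p of the 10 0.00208), in a comparison that called 13.3% of all tested genes higher. The log2 difference there was 10.3 ± 1.78 (SE) for Ttr, 8.22 ± 1.24 for Folr1, 6.84 ± 1.35 for Tmem72 and 6.12 ± 1.28 for Slc4a5, and Sostdc1 had the least, 2.79 ± 0.508. All 10 genes had 4 hippocampus values above 4 prefrontal values, against 13.1% of all genes. Ependymal markers, those of the ventricle lining, were also higher in the hippocampus there, called for 9 of 9. Their median was 2.71, beside a median of 4.39 for the 10 genes. Summed thalamic markers were at 166 to 172 CPM in the hippocampus and 68.7 to 108 CPM in the prefrontal cortex. Those of Cajal-Retzius cells, early neurons of the cortical surface, were at 366 to 458 against 210 to 296 CPM. The part of these lists in the difference was not tested.

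Fewer genes passed in the other groups. In WT, 6 of 10 were higher in the hippocampus at 6W (13.1% of all genes) and 8 of 10 at 6M (11.3%). In KO, 6 were higher at P5 (11.8%), 7 at 6W (12.7%) and 6 at 6M (9.68%). None was lower. Ttr, Folr1, Kl and Otx2 were higher in all 6 comparisons, though under the alternatives tried Kl alone of these kept its call in each of the 6, and Otx2 in KO at 6M lost its call under 6 of 14. By contrast, Kcnj13 and Aqp1 passed in WT at P5 and in none of the other 5. Ependymal markers were called higher for 9 of 9 in KO at P5 (median 2.63, beside 2.62 for the 10 genes), KO at 6W (2.04) and WT at 6M (2.02), for 8 of 9 in WT at 6W (1.56) and for 7 of 9 in KO at 6M (1.37). Their part in the difference between tissues was not tested. At 6W in WT, all 4 prefrontal libraries had 0 counts of Slc4a5, and the hippocampus values were 0.149, 0.130, 0.581 and 5.83 CPM. Their mean was at least 14.9-fold higher than the level of 3 counts per prefrontal library, a bound set by WT replicate 4, and at least 2.56-fold without that library.

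These counts rested in part on single libraries. Without KO replicate 2 at 6W the count fell from 7 to 3 (Ttr, Kl and Sostdc1), without KO replicate 2 at 6M from 6 to 3, and without WT replicate 4 at 6W from 6 to 2 (Kl and Sostdc1). Per library, 11 of the 24 hippocampus libraries had all 10 genes above every one of the 24 prefrontal libraries. They were the 4 WT libraries at P5, KO replicates 2 and 3 at P5, KO replicate 2 at 6W and at 6M, WT replicate 4 at 6W, and WT replicates 3 and 4 at 6M. The other 13 had 1 to 5 such genes, with 1 in KO replicates 1 and 4 at P5 (Folr1 in both) and in WT replicate 2 at 6W (Kl).

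The 10 genes together took 0.00223% to 0.897% of a hippocampus library's counts and 0.00104% to 0.00308% of a prefrontal library's. Ttr made up 28.2% to 96.5% of that sum in the hippocampus. The mean log2 CPM of the 10 genes was 4.97 ± 0.81 in WT and 1.85 ± 2.31 in KO hippocampus at P5, 1.26 ± 1.81 and 2.32 ± 2.11 at 6W, and 3.21 ± 1.61 and 1.87 ± 1.65 at 6M (mean ± SD, n = 4). In the prefrontal cortex it ran from -0.89 to -0.36 over the 6 groups.

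The KO was compared with WT in the hippocampus at each age. At P5 all 10 genes were lower in KO, by 1.63 (Sostdc1) to 2.68 (Slc4a5) on the log2 scale, with a median of -2.11 against 0.02 for all genes. None passed the test (edgeR, adjusted p 0.184 to 0.722), where 0.118% of all genes did. At an unadjusted p under 0.05 stood 7 of them (4.35% of all genes were lower at that level), and DESeq2 called 0 of 10. There was no overlap between genotypes for 5 of the genes, namely Ttr, Kcnj13, Kl, Slc4a5 and Aqp1 (1.97% of all genes were lower without overlap).

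Kl came nearest, at -1.98 ± 0.516 (SE, 95% interval -3.04 to -0.92, edgeR adjusted p = 0.184). Ttr, at -2.46 ± 1.51 (95% interval -5.56 to 0.64), had the widest interval. Fitted on the 8 P5 samples alone, Kl passed (edgeR adjusted p = 0.0320), and with no filter on low counts all 10 did, with adjusted p down to 1.39e-70. In that unfiltered fit the prior degrees of freedom were infinite, so that a gene's own spread between libraries did not enter: the quasi-dispersion used for the 10 genes was 0.802 to 1.09, against 12.1 to 128 with the filter. Nothing here rests on the unfiltered calls. Leaving out any 1 of the 8 P5 libraries kept all 10 values below 0 at P5, with 0 called and medians of -2.70 to -1.74.

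At 6W the sign was the other way and hung on a single library. All 10 values were positive, 0.50 (Kl) to 2.04 (Ttr, SE 1.49, 95% interval -1.02 to 5.09), with a median of 1.35, and none passed (edgeR, adjusted p of 1 for each; 0.0394% of all genes passed). None had an unadjusted p under 0.05 (4.32% of all genes did), and DESeq2 called 0. Without KO replicate 2 all 10 were negative, -2.56 to -0.40, with Ttr at -1.94. Without WT replicate 4 the median was 3.56.

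At 6M all 10 values were negative again, -1.50 (Slc4a5) to -0.50 (Kl), with Ttr at -1.31 ± 1.46 and a median of -1.12. None passed (edgeR, adjusted p of 1; 0.045% of all genes passed), 1 had an unadjusted p under 0.05 (Sostdc1, -1.37 ± 0.624; 3.24% of all genes did), and DESeq2 called 0. Without KO replicate 2 the median was -2.74, and without WT replicate 3 it was -0.68. With no filter on low counts, in the same unfiltered fit, 10 genes passed at 6W, the age at which 1 library set the sign, and 9 at 6M.

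**Figure D3:**
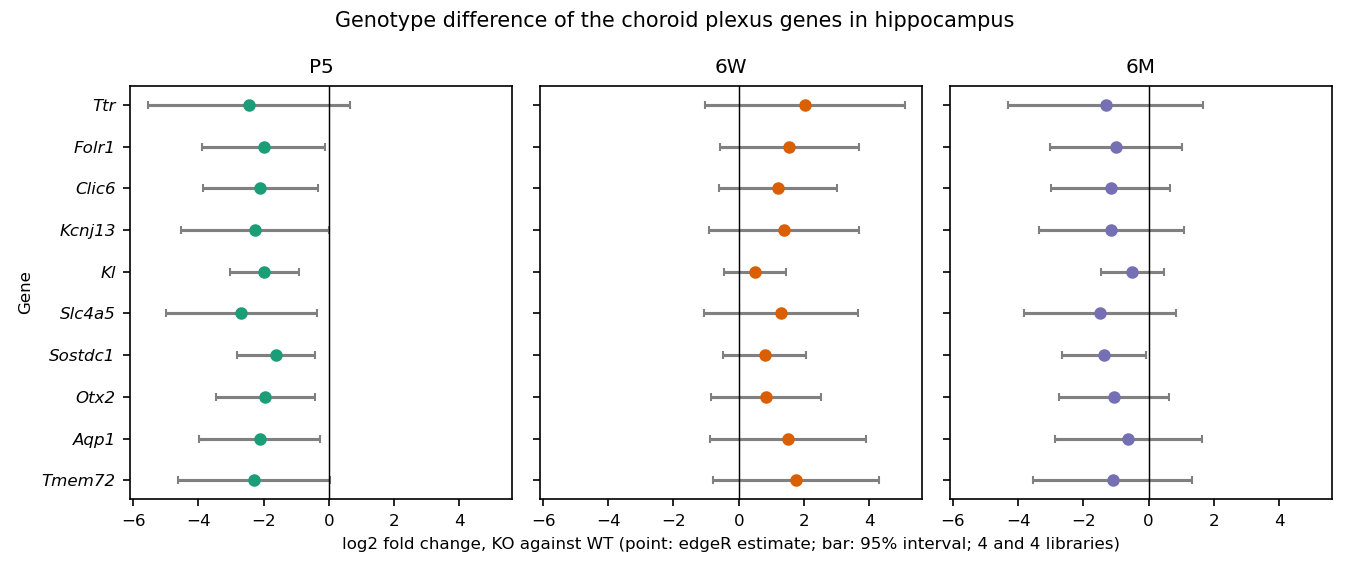
Difference KO minus WT in the hippocampus for each gene (log2 fold change from edgeR, points, with 95% intervals as bars) at P5, 6W and 6M. All points lie below 0 at P5 and 6M and above 0 at 6W, and the intervals at 6W all include 0.

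The difference between genotypes was also tested across ages and tissues. The test that the KO difference was the same at all 3 ages passed for none of the 10 genes (edgeR, adjusted p 0.897 to 0.999; 0.00562% of all genes passed), with 4 at an unadjusted p under 0.05 (Folr1, Clic6, Kl and Sostdc1; 4.83% of all genes were). Of the ependymal markers 4 of 9 stood at that level in the same test, with none called, and their part in the result was not tested. The test at P5 that the KO minus WT difference was the same in both tissues passed for none (0.00531% of all genes). All 10 values, the difference in hippocampus minus that in prefrontal cortex, were negative, with a median of -2.03. Kl, at -2.03 ± 0.674, and Sostdc1, at -1.76 ± 0.693, had an unadjusted p under 0.05 there, as did 4.06% of all genes. Markers of meningeal and stromal fibroblasts were also negative in that test for 10 of 10 (median -1.17, 7 at an unadjusted p under 0.05), and those of red blood cells for 5 of 5 (median -0.81, 2 at that level), with none called. In the prefrontal cortex alone these lists had positive values for KO against WT at P5, fibroblast markers for 10 of 10 (median 0.77, 7 at that level) and red blood cell markers for 5 of 5 (median 0.34), with none called, and their part in the result was not tested. None of the 7 members tested in the prefrontal cortex passed the test of KO against WT at P5 (0.0496% of all genes passed), 6W (0.0331%) or 6M (0.0331%), and the medians were 0.04, 0.19 and 0.18. None had an unadjusted p under 0.05, where 8.28%, 3.38% and 1.73% of all genes did. For Kl the 95% interval of the prefrontal difference at P5 was -0.44 to 0.53.

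Between P5 and 6W, 7 of the 10 genes fell in the WT hippocampus, in a comparison that called 30.6% of all genes lower. Aqp1 fell by 4.49 on the log2 scale (SE 1.09, edgeR adjusted p = 0.000803), Ttr by 4.11 (SE 1.63, edgeR adjusted p = 0.0304) and Folr1 by 3.52 (SE 1.02, edgeR adjusted p = 0.00413). Tmem72, Otx2, Sostdc1 and Clic6 fell by 3.17, 2.70, 2.45 and 2.32. Kcnj13 at -2.21 and Slc4a5 at -2.55 did not pass (edgeR adjusted p = 0.0864 and 0.0509), and Kl was the only gene with a positive value, 0.65 ± 0.475 (edgeR adjusted p = 0.239).

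Ttr, Folr1, Sostdc1, Otx2 and Aqp1 did not overlap between the ages in WT (26.6% of all genes were lower without overlap). Leaving out libraries moved the count of 7 between 4 and 9. It was 4 (Folr1, Sostdc1, Otx2 and Aqp1) without WT replicate 1, 2 or 3 at 6W and 9 without WT replicate 4 at 6W. Under the alternatives tried the values moved too, from -7.03 to -3.71 for Ttr and from -6.22 to -2.80 for Tmem72. Those of Kcnj13 ran from -5.13 to -1.84 and those of Sostdc1 from -2.93 to -2.27. Over the same step markers of Cajal-Retzius cells, early neurons of the cortical surface, were called lower in WT for 5 of 5 (median -2.23), ependymal markers for 5 of 9 (median -1.46) and fibroblast markers for 3 of 10 (median -0.78). In KO the counts called lower were the same, with medians of -2.32, -0.79 and -0.52, and 1 fibroblast marker was called higher. The part of these lists in the result was not tested.

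In KO, Kl was the 1 gene that passed over the same step in age, rising by 3.13 ± 0.526 on the log2 scale (95% interval 2.05 to 4.21, edgeR adjusted p = 9.78e-06). That comparison called 31.2% of all genes higher, and 27.6% were higher without overlap, as Kl was. The other 9 genes had values of -0.84 (Aqp1) to 1.46 (Kcnj13). Without KO replicate 2 at 6W, all values but that of Kl were negative, and Folr1 (-2.48, edgeR adjusted p = 0.0453), Sostdc1 (-1.35) and Aqp1 (-3.53) passed as lower, with Kl still higher at 2.23.

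From 6W to 6M no gene passed in WT (0.157% of all genes did) or in KO (0.45%). The 10 WT values were all positive, 0.58 to 2.15, and the 10 KO values all negative, -1.30 to -0.41. Under the alternatives tried the WT values stayed positive but moved, from 1.56 to 5.07 for Ttr and from 0.33 to 0.99 for Kl. Without KO replicate 2 at 6W the KO values were all positive, with a median of 1.77. Ependymal markers had the same signs as the members, 9 of 9 positive in WT (median 0.22) and 9 of 9 negative in KO. Their KO median was -0.72, with 5 at an unadjusted p under 0.05. Red blood cell markers were negative for 5 of 5 both in KO (median -0.36, 2 at that level) and in WT (median -0.25). Cajal-Retzius markers were negative for 4 of 5 in KO (median -0.29, 2 at that level) and positive for 3 of 5 in WT. None of these markers was called, and their part in the result was not tested.

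Between P5 and 6W, 4 of 7 genes passed in the prefrontal cortex in WT and 3 in KO (edgeR, highest adjusted p 0.0303 and 0.0191), shares no higher than the 60.8% and 61.4% of all genes that did. Sostdc1 fell there by 3.15 (SE 0.266, edgeR adjusted p = 1.69e-10) in WT and by 3.10 (SE 0.261, edgeR adjusted p = 1.54e-10) in KO. Its level was 6.36, 4.93, 6.77 and 4.40 CPM in WT and 4.39, 6.78, 5.55 and 8.07 CPM in KO at P5, and 0.83, 0.59, 0.57 and 0.55 CPM in WT and 0.64, 0.95, 0.41 and 0.86 CPM in KO at 6W. These prefrontal groups did not overlap, and the P5 level was near that of KO replicates 1 and 4 in the hippocampus, 6.25 and 6.70 CPM. Aqp1 fell by 1.98 (SE 0.717) in KO and by 1.90 (SE 0.743) in WT. The WT call of Aqp1 was lost without WT replicate 2 or 4 at P5 or without WT replicate 2, 3 or 4 at 6W, with values down to a fall of 1.38 (edgeR adjusted p = 0.136). Otx2 fell in WT by 2.24 (SE 0.726), a call that rested on WT replicate 1 at P5 (2.26 CPM, against 0.111 to 0.509 in the other 3). Without that library its value was -1.05 (edgeR adjusted p = 0.194). Kl rose by 1.20 (SE 0.230) in WT and by 1.37 (SE 0.228) in KO, from 1.11 to 2.88 CPM over the 8 P5 libraries to 3.64 to 5.69 CPM over the 8 at 6W. None passed from 6W to 6M (0.0386% and 0.0937%). Between P5 and 6W fibroblast markers were called lower in the prefrontal cortex for 5 of 10 in WT (median -0.85) and 7 of 10 in KO (median -1.38), with 1 higher in each. Cajal-Retzius markers were called lower for 4 of 5 in both (medians -2.71 in WT and -3.29 in KO). Red blood cell markers were called higher for 4 of 5 in WT (median 1.20) and 3 of 5 in KO (median 0.81), and the part of these lists in the result was not tested.

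Kl kept a measurable level in libraries with little Ttr. In the hippocampus at 6W and 6M its lowest library still had 27.0 CPM, although Ttr fell to 16.9 CPM in the same ages. A straight line through the 4 libraries of each group put Kl at 3.68 (KO) and 4.67 (WT) CPM where Ttr is 0 at P5, and at 32.3 to 38.1 CPM in the 4 older groups. Per 1000 CPM of Ttr, the same lines gave 4.06 and 4.86 CPM of Kl at P5 and 20.8 to 42.7 CPM later. These lines each rest on 4 libraries, often on 1 high one, and are descriptions.

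Aqp1 went the other way. It had 4.36 (KO) and 3.37 (WT) CPM per 1000 CPM of Ttr at P5 and 1.27 to 2.49 CPM in the older groups. Kcnj13 had 4.39 and 3.51 CPM at P5 and 9.30 to 14.5 CPM later, and Slc4a5 had 1.56 and 1.99 CPM at P5 and 3.64 to 5.39 CPM later. Folr1 stayed between 4.62 and 5.79 CPM in all 6 groups. Tmem72 had 3.55 and 3.37 CPM at P5 and 4.48 to 5.65 CPM later. Clic6 ranged from 4.04 to 12.9 CPM, Sostdc1 from 4.01 to 9.83 CPM and Otx2 from 1.40 to 3.13 CPM. Clic6, Sostdc1 and Otx2 showed no split between P5 and later ages.

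**Figure D4:**
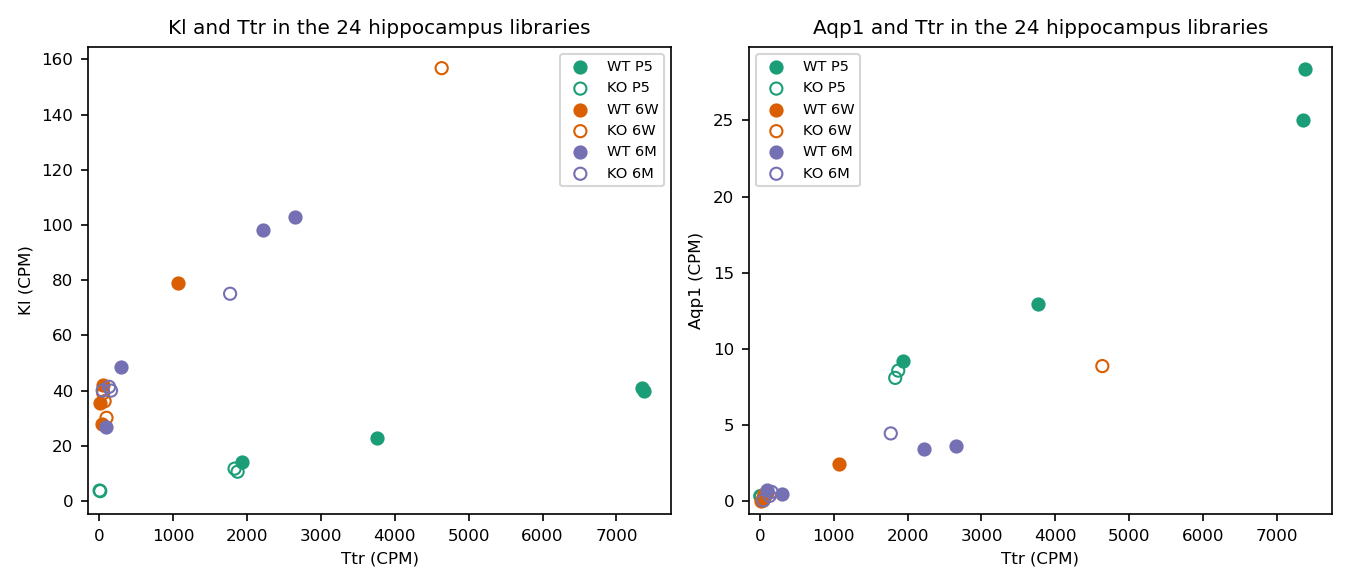
Kl (left) and Aqp1 (right) against Ttr (CPM, linear scales) in the 24 hippocampus libraries, by age and genotype. At P5 Kl falls with Ttr to 3.61 CPM, whereas at 6W and 6M it levels off at 27.0 CPM or more, and older libraries lie below P5 libraries for Aqp1 at like Ttr.

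Other genes of the epithelium were taken from a list of 28, all tested in the hippocampus. In WT at P5, 22 of the 28 were higher in the hippocampus than in the prefrontal cortex, where 13.3% of all genes were, with a median log2 difference of 2.49. Between KO and WT at P5 none passed, 26 of 28 were negative, 21 were lower at an unadjusted p under 0.05 (4.35% of all genes were), and the median was -1.40. At 6W 28 of 28 were positive (median 0.61) and at 6M 28 of 28 negative (median -0.58), with none called. Kcne2, a potassium channel subunit, was 39.2, 53.2, 12.02 and 25.4 CPM in WT and 0.181, 9.28, 10.5 and 0.110 CPM in KO at P5, high and low in the same libraries as Ttr.

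From P5 to 6W in WT, 19 of the 28 fell, where 30.6% of all genes did. Prlr, the prolactin receptor, was the 1 that rose (2.31, edgeR adjusted p = 0.0122), where 31.4% of all genes did. Wfikkn2 fell by 3.91, Igf2 (insulin-like growth factor 2) by 2.75, Lmx1a (a homeobox factor) by 2.73 and Igfbp2 by 2.57. In KO, where 31% of all genes fell and 31.2% rose, 5 of the 28 fell, among them Lmx1a by 1.57 and Wfikkn2 by 1.70, and 4 rose: Prlr by 4.01, Enpp2 (autotaxin, also made by oligodendrocytes) by 3.15, Car12 (carbonic anhydrase 12) by 1.21 and Cab39l by 0.57. Prlr was at 1.63 to 3.42 CPM in all 8 hippocampus libraries at P5, whatever their Ttr. At 6W it was 4.31, 13.5, 6.45 and 29.0 CPM in WT and 5.58, 95.01, 10.1 and 9.87 CPM in KO, highest in the libraries with the most Ttr.

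Among all other genes tested in the hippocampus, the 8 that followed the mean of the 10 most closely over the 24 libraries, with group means removed, were Kcne2 (r = 0.981), Mfrp (0.973), Trpv4 (0.958), Cdh3 (0.955), Abca4 (0.953), F5 (0.947), Enpp2 (0.945) and Cldn2 (0.940). All but Cdh3, the gene of P-cadherin, were on the list of 28. Trpv4 encodes a cation channel, Cldn2 a tight junction claudin and F5 coagulation factor V. The points share their libraries, so these values are descriptions. In the prefrontal cortex the closest genes were others, led by Zic2 (0.824), Zic1 (0.794) and Zic4 (0.778), zinc finger factors. The mean followed there includes Folr1, Slc4a5 and Tmem72, which did not pass the filter on low counts.

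Markers of other cells that could enter a dissection were read beside these results. In the hippocampus at P5, summed markers of ependymal cells, the ciliated lining of the ventricle, were 85.0, 73.7, 52.8 and 62.2 CPM in WT and 116, 92.6, 58.9 and 42.4 CPM in KO, overlapping, with a median log2 difference of 0.20 over 9 tested markers. Fibroblast markers of the meninges and stroma were 174, 205, 262 and 222 CPM in WT and 173, 247, 160 and 137 CPM in KO, with 10 of 10 negative (median -0.44) and none called. Endothelial markers were 99.3, 96.7, 96.8 and 108 CPM in WT and 91.9, 103, 98.7 and 90.3 CPM in KO, and 1 of 6, Slco1a4, was called lower. Red blood cell markers were lower in KO for 5 of 5, with a median of -0.42 and none called. Of KO replicates 1 and 4, the pair with the least choroid plexus signal, replicate 1 had the highest ependymal sum of the 8 libraries and replicate 4 the lowest, and both had the lowest endothelial sums. In these 8 libraries no ependymal or endothelial marker was at 0 and at most 1 of 10 fibroblast markers was.

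At 6M both ependymal (9 of 9 negative, median -0.62) and fibroblast markers (10 of 10 negative, median -0.71) moved with the choroid plexus genes, and at 6W ependymal markers did (9 of 9 positive, median 0.38). Red blood cell markers were negative at 6M for 5 of 5 (median -0.40) and thalamic markers for 6 of 6 (median -0.15). None of these passed the test, and their part in the result was not tested. In the prefrontal cortex at P5, WT replicate 1 and KO replicate 1 had striatal marker sums of 259 and 247 CPM against 74.1 to 100.2 CPM in the other 6, ependymal sums of 24.7 and 22.3 CPM against 4.74 to 7.83 CPM, and the highest Otx2, 2.26 and 0.927 CPM.

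**Figure D5:**
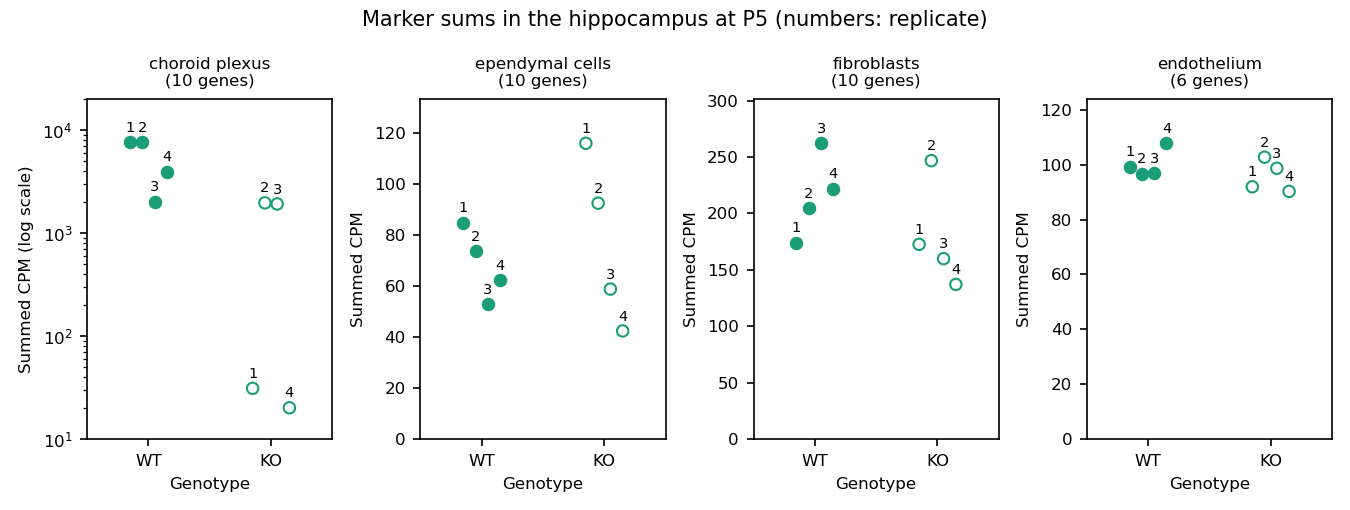
Summed level (CPM) of 4 marker lists in the 8 hippocampus libraries at P5, WT and KO, 1 point per library, with the first panel (the 10 choroid plexus genes) on a log scale. Only in the first panel do the genotypes separate, at 2019 CPM and more in WT against 1960 CPM and less in KO.

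Finally, the 21 genes that differed between KO and WT in the hippocampus at P5 were set beside the choroid plexus level. Of the 18 that were lower in KO, 8 had r above 0.5 with the mean of the 10 genes, and so did 2.29% of all 17786 genes. That bound and these names were chosen after the values were seen. They were Emb (r = 0.825), Car14 (0.769, log2 change -2.05), Ppp1r3b (0.764, -2.11), Mitf (0.730, -1.28), Slc22a19 (0.642, -4.22), Moxd1 (0.578), Arsg (0.534) and Prps2 (0.534). The group means had been removed before r was taken, so the difference between KO and WT does not enter it. None of the 3 genes that were higher in KO had such an r, and Mpg had -0.069. Car14 encodes a membrane carbonic anhydrase and Mitf a transcription factor of pigment cells.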

How the data were processed

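RNA from 48 mouse brain samples (12 groups of 4) was sequenced from poly(A) libraries with a stranded kit, as single reads, per the labels' protocols. The authors deposited counts of reads per Ensembl gene. The submitters' processing notes name bcl2fastq 2.20.0.422, STAR 2.4.0, HTSeq and the build GRCm38. The annotation and the strand setting of the counting are not given in the sources used here. Of 54838 gene IDs, 54723 were given a symbol from the reference tables.

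From the counts, R 4.3.3 with edgeR 4.0.16 was used: TMM scaling, filterByExpr on the groups, and the quasi-likelihood test with Benjamini-Hochberg adjustment over all tested genes, a call being an adjusted p under 0.05. One fit held the 24 hippocampus samples (17786 genes), another the 24 prefrontal samples (18144 genes), and the last all 48 (18849 genes), which served the contrasts between tissues. CPM values use TMM library sizes. The log2 level per library has a prior count of 1, and RPKM divides by GENCODE M21 exonic length. A level of 3 counts is 0.0662 to 0.151 CPM, depending on the library, and bounds counting error only. The p-values weigh a difference between group means against the spread between these samples.

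The members and the other marker lists were chosen with earlier results of these data known. The named genes are the 10 members, called genes of the list of 28 (up to 6 by smallest p), the 8 genes of highest r per tissue, and the motif windows. Other genes are said to have been chosen after their values were seen. Kcne2 and the lines of other genes against Ttr are descriptions of that kind. Alternatives were DESeq2 1.42.0, median-of-ratios size factors, other filters on low counts, fits on only the groups compared, blocks on the replicate number or presumed animal, and leaving out each library in turn. The fits were tested on simulated counts. Replicate numbers are shared between groups, and in 2 of 20 comparisons every same-numbered pair of samples deviated together with r over 0.1 (over 9732 genes), KO against WT at 6W and 6M against 6W in KO, both in the hippocampus, with mean r of 0.339 and 0.367. All pairs of libraries within a group differed by more than counting noise.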

Additional observations from a re-analysis of the deposited data

Results flagged for a closer look

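Within groups of 4 libraries, 32 of 120 sets of values (10 genes in 12 groups) had a library whose gap to the nearest of the others exceeded Dixon's 95% critical value for their range, where chance gives about 6.0, or 1 in 20. The genes are read from the same libraries, so these are not 32 separate events.

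KO replicate 2 of the hippocampus at 6W stood apart for all 10 genes. There Ttr was at 4635 CPM (56.3 to 100.4 in the other 3), Kl at 157, Kcnj13 at 44.2, Clic6 at 38.2, Sostdc1 at 34.9, Tmem72 at 23.3, Folr1 at 22.2, Slc4a5 at 17.3, Aqp1 at 8.87 and Otx2 at 8.82 CPM. KO replicate 2 of the hippocampus at 6M did so for 8 genes, with Ttr at 1773 CPM (48.9 to 161 in the others), Kl at 75.1, Kcnj13 at 21.7, Sostdc1 at 11.1, Folr1 at 10.6, Tmem72 at 9.52, Slc4a5 at 6.46 and Aqp1 at 4.45 CPM. WT replicate 4 of the hippocampus at 6W did so for 6 genes, with Ttr at 1068 CPM (16.9 to 56.0 in the others), Kcnj13 at 15.5, Clic6 at 14.8, Folr1 at 6.10, Tmem72 at 6.03 and Slc4a5 at 5.83 CPM.

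The prefrontal cortex gave 8 such values at low levels. Ttr was at 8.59 CPM in WT replicate 1 at P5 and at 21.1 CPM in WT replicate 1 at 6W, where Sostdc1 was also apart at 0.834 CPM. Kcnj13 was at 2.49 CPM in KO replicate 2 at P5 and at 6.65 CPM in KO replicate 2 at 6M. Otx2 was at 0.927 CPM in KO replicate 1 at P5. Tmem72 was at 0.411 CPM (10 counts) in KO replicate 3 at 6W and, on the low side, at 0.0783 CPM (2 counts) in WT replicate 2 at 6W.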

How the results depend on the processing

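Scaling, a mean of at least 10 counts, and DESeq2 left the counts of genes called within 1.5 times those reported. With no filter on low counts the counts were 10, 10 and 9 for KO against WT in the hippocampus at P5, 6W and 6M (0 with the filter in each), 10 for genotype by age in the hippocampus (0), 10 for 6M against 6W in WT and 10 in KO (0 each), 7 for 6W against P5 in KO (1), 5 for 6W against P5 in the KO prefrontal cortex (3) and 1 for genotype by tissue at P5 (0). Without the filter the prior degrees of freedom rose from 8.88 to infinity in the hippocampus fit, from 6.84 to 41.6 in the prefrontal fit and from 8.27 to 87.7 in the fit of both tissues, which draws each gene's spread towards that of all genes. Fitted on only the samples compared, 1 gene (Kl) was called at P5 between KO and WT. Leaving out 1 replicate at a time gave 4 to 9 genes for 6W against P5 in the WT hippocampus, 1 to 4 in KO, and, for hippocampus against prefrontal cortex, 3 to 10 in KO at 6W, 3 to 7 in KO at 6M and 2 to 6 in WT at 6W. Folr1 between P5 and 6W in the KO hippocampus was 0.03, and ranged from -2.48 (edgeR adjusted p = 0.0453, without KO replicate 2 at 6W) to 0.61 (without KO replicate 2 at P5). Without Ttr, the mean log2 CPM in the prefrontal cortex was -0.62 in KO at P5, -0.92 in KO at 6W, -0.71 in KO at 6M and -0.82 in WT at 6M, against -0.39, -0.62, -0.36 and -0.54 with it.

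With the replicate number as a block, KO against WT in the hippocampus still called 0 of the 10 genes at P5, 6W and 6M, and 6W against P5 called 8 in WT (7 without the block) and 1 in KO. At 6W, where the numbers pair the samples by that check, the block moved Ttr from 2.04 to 0.43. With the animal presumed from the number as a block, hippocampus against prefrontal cortex called 10, 6 and 8 genes in WT and 6, 7 and 5 in KO (6 at 6M without it). The block changed no other count by over 1.5 times. Counts of 3 or fewer in up to 15 of 24 prefrontal libraries (Slc4a5) limit what can be said of Folr1, Slc4a5 and Tmem72 there.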
